A study of Mus musculus with 24 samples.

Results

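The interferon regulatory factors (IRFs) are a family of transcription factors that share a helix-turn-helix DNA-binding domain. The members described here were Irf1, Irf2, Irf3, Irf4, Irf5, Irf7, Irf8 and Irf9. They were chosen by gene symbol, and all 8 were found among the 23420 gene symbols counted in each of 24 RNA-seq libraries. The libraries came from C57BL/6 mouse cells and fell into 10 groups: Th2 cells (8 libraries) and bone marrow-derived macrophages, BMDMs (16 libraries). The study asked what the loss of TDG, or of TET1, TET2 and TET3, does to helper T cells and macrophages. TET enzymes oxidise 5-methylcytosine in DNA, and TDG is the glycosylase that excises the more oxidised forms.

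TDG iKO cells carried Tdg fl/fl, CreERT2 and the Rosa26-H2B-EGFP/GPI-mCherry LSL reporter. TET iTKO cells carried Tet1, Tet2 and Tet3 fl/fl, CreERT2 and Rosa26-EYFP LSL. CreERT2 is a Cre recombinase that tamoxifen activates, here carried as a transgene at the Ndor1 locus and not restricted to a cell type. Adult Cre-carrying and wild-type (WT) control mice both received tamoxifen. Th2 cells were sorted naive CD4 T cells cultured with antibodies to CD3 and CD28, IL-4 and antibody to IFN-gamma, and then with IL-2, and had 4 WT and 4 TDG iKO libraries. BMDMs were grown from bone marrow in L929-conditioned medium and then with M-CSF. A Tdg cohort (WT and TDG iKO) and a Tet cohort (WT and TET iTKO) each had 2 libraries per genotype left unstimulated (0 h) and 2 after 6 h of Kdo2-lipid A (KLA), a pure agonist of Toll-like receptor 4 (TLR4). Each cohort had its own WT, and no TET iTKO library of Th2 cells was analysed here.

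IRFs read signals from pattern-recognition receptors and interferon receptors. TLR4 acts through the adaptors MyD88 and TRIF; the TRIF branch activates the kinases TBK1 and IKK-epsilon, which phosphorylate IRF3 and IRF7, and these turn on interferon genes. Secreted type I interferon then signals through JAK kinases and STAT proteins, and IRF9 joins STAT2 in the complex that binds the interferon-stimulated response element. Interferon and NF-kB induce IRF1, IRF2 competes with it for the same DNA, IRF5 works downstream of MyD88, IRF8 sets the macrophage and dendritic cell programme, and IRF4 acts with BATF-family proteins in T helper and B cells. Much of this control is by phosphorylation, which RNA levels do not measure.

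Library depth ranged from 4982950 to 26657729 assigned counts (median 14853861), and was lower in the Tdg cohort (4982950 to 19405606) than in the Tet cohort (13145625 to 21503302). Macrophage and T cell markers fitted the labelled cell types. The summed level of 9 macrophage markers was 13140 to 17845 RPKM (counts divided by exonic length in kilobases and scaled to library size) in BMDMs and 4.74 to 20.0 in Th2 cells, and Csf1r, Fcgr1, Lyz2 and Mertk were at or under 3 counts in every Th2 library. The sum of 6 T cell markers was 1008 to 1574 RPKM in Th2 cells and 2.49 to 8.93 in BMDMs. Markers of other cells were also present. The sum of 4 CD8 and NK markers was 10.8 to 16.4 RPKM in Th2 cells, with Klrb1c and Ncr1 at or under 3 counts there. Neutrophil and precursor markers summed to 37.8 to 707 RPKM in BMDMs. Counts of the targeted genes did not check the knockouts. Tdg had 0 to 7 raw counts in every library, and Tet2 and Tet3 had 719 to 2168 and 1320 to 1840 in TET iTKO against 563 to 1515 and 1215 to 2039 in WT of the Tet cohort. A gene-wide count does not resolve the floxed exons.

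In Th2 cells the libraries stood apart by number. Replicates 3 and 4 of each genotype (library numbers 17 to 20) agreed almost within counting noise, with a mean chi-square per gene of 1.34 (TDG iKO) and 1.51 (WT). Other Th2 pairs of a genotype gave 21.3 to 218. Replicates 3 and 4 were summed and counted as 1 sample (n = 3 per genotype). Replicates 1 and 2 (library numbers 1 to 4) differed widely from them in most members, as described below. The labels do not say what the numbers mark. Nothing in the labels says that replicates came from separate animals, so p-values measure the spread between these samples only.

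The genome positions are those of build mm9. The interferon-responsive Irf1 lies on chromosome 11 (53583516 to 53591876, plus strand), Irf2 on chromosome 8 (47825099 to 47932812, plus) and Irf8 on the same chromosome (123260258 to 123280594, plus). The virus-activated Irf3 and Irf7 both lie on chromosome 7 (52253018 to 52258218, plus, and 148448605 to 148452380, minus). Irf4 lies on chromosome 13 (30841095 to 30858796, plus), Irf5 on chromosome 6 (29476625 to 29491869, plus) and Irf9 on chromosome 14 (56222408 to 56228867, plus). Some exons overlap another gene. In Irf5, 251 bases (9.15% of its exonic length) are shared with Tnpo3 on the opposite strand, in Irf9 123 bases with Rnf31 on the same strand, in Irf1 100 bases with Gm17334 and in Irf7 45 bases with Phrf1, both opposite. The strand setting of the counting was not stated, so reads in those stretches could belong to either gene.

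The 250 bases before the start site are shown for the 4 members that had a called change with KLA in any group. The sequences are from RefSeq (table of build GRCm38.p6) and were placed on mm9 by exact match, all on the plus strand; all 8 members had an entry. Capitals mark matches to 3 motifs searched on both strands: the interferon-stimulated response element (ISRE, GAAA and GAAA parted by any 2 bases), the gamma-activated sequence (GAS, TTCNNNGAA) and the NF-kB site (GGG, any 2 bases, T, any 2 bases, CC). In windows of this length ISRE was found in 2.98%, GAS in 7.02% and NF-kB in 15.9% of 32851 promoters. Counted per gene the shares were 3.46%, 8.13% and 17.9% of 27025 genes.
Irf1, chr11:53583266-53583515: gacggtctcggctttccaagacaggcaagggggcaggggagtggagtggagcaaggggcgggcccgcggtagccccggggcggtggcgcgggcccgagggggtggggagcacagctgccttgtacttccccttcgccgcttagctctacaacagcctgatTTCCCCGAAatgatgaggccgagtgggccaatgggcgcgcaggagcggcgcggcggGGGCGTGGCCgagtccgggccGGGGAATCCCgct
Irf2, chr8:47824849-47825098: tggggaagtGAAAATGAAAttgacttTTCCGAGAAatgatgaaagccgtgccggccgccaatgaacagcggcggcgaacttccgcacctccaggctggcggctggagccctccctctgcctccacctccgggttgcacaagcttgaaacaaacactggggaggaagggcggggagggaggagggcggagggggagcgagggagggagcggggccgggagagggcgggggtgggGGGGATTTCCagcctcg
Irf5, chr6:29476375-29476624: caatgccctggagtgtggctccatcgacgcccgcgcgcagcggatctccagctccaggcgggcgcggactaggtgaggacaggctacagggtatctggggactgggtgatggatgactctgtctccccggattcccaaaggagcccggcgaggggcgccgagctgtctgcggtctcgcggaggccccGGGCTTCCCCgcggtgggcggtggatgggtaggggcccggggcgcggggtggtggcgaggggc
Irf8, chr8:123260008-123260257: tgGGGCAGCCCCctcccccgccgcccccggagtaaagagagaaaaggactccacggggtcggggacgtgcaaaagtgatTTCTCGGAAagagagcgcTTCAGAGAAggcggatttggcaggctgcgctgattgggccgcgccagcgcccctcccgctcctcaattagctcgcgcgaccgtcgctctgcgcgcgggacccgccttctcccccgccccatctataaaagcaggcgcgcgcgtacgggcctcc

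Irf1 held a GAS 90 to 82 bases and NF-kB matches 34 to 25 and 13 to 4 bases before its start. Irf2 was the only member with an ISRE (241 to 232 bases upstream), beside a GAS (224 to 216) and an NF-kB match (17 to 8). Irf5 held an NF-kB match alone (63 to 54 bases). Irf8 held 2 GAS matches (171 to 163 and 153 to 145 bases) and an NF-kB match (248 to 239). No match was present in the windows of Irf3, Irf4, Irf7 and Irf9. The Irf9 windows precede start sites 414 and 1008 bases past its gene start, so the bases before that gene start were not searched. Irf1 and Irf8 each had a further window, before start sites 459 and 2281 bases past the gene start, without a match. A match is a run of letters and was not tested as a binding site, and its relation to the KLA changes was not tested.

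In macrophages Irf7 was by far the most abundant member and Irf4 the least. The level of Irf7 RNA, which encodes the amplifier of type I interferon induction, was 396 to 821 RPKM over the 16 BMDM libraries (median 554). It ranked first of the 8 members in every one of them, and at 0 h its median of 592 RPKM was rank 64 of 21259 genes. Irf5, the MyD88-linked member, followed with a median of 98.1 RPKM at 0 h. Irf8 (50.7), Irf9 (44.9), Irf2 (27.7), Irf1 (26.9) and Irf3 (17.1) lay below it. The level of Irf4 was 0 to 1.32 RPKM and last in all 16 libraries. Its raw counts were 0 to 108, and the library with 0 counts (Tdg cohort WT 0 h replicate 2) allowed up to 0.128 RPKM by a floor of 3 counts, a limit that covers counting error only. Levels between genes depend on the length used: with the longest coding transcript in place of all coding exons the 0 h medians were 43.7 RPKM for Irf1, 120.0 for Irf5 and 61.2 for Irf8, and Irf7 stayed first and Irf4 last in every BMDM library.

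Irf7 differed more between replicates than between conditions in the Tdg cohort. Its level was 500.3 and 701 RPKM in WT at 0 h, 543 and 776 in TDG iKO at 0 h, 496 and 772 in WT at 6 h and 517 and 821 in TDG iKO at 6 h. In all 4 groups the library of replicate 2 was the higher. The summed level of neutrophil and precursor markers was 236 to 707 RPKM in the 4 libraries of replicate 1 and 37.8 to 76.6 in those of replicate 2, progenitor markers 3.17 to 8.99 and 0.753 to 1.62, and macrophage markers 15136 to 17642 and 13140 to 14411. In the Tet cohort replicate 2 was also the higher in each group. Irf7 was 445 and 558 RPKM in WT at 0 h and 396 and 555 at 6 h. In TET iTKO it was 626 and 637, then 486 and 553. Neutrophil and precursor markers there were 55.2 and 82.0 in WT at 0 h and 76.0 and 70.0 at 6 h. In TET iTKO they were 134 and 234, then 147 and 197. The part of all these markers in the Irf7 levels was not tested. When the 10 groups were ordered by mean level, neighbours overlapped for 8 of the 9 steps of Irf7, Irf1 and Irf4, all 9 of Irf2, Irf3 and Irf9, 7 of Irf8 and 5 of Irf5. For Irf5 the steps without overlap fell in the Tet cohort and between BMDMs and Th2 cells, and for Irf7 and Irf4 the only such step was between the 2 cell types.

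**Figure D1:**
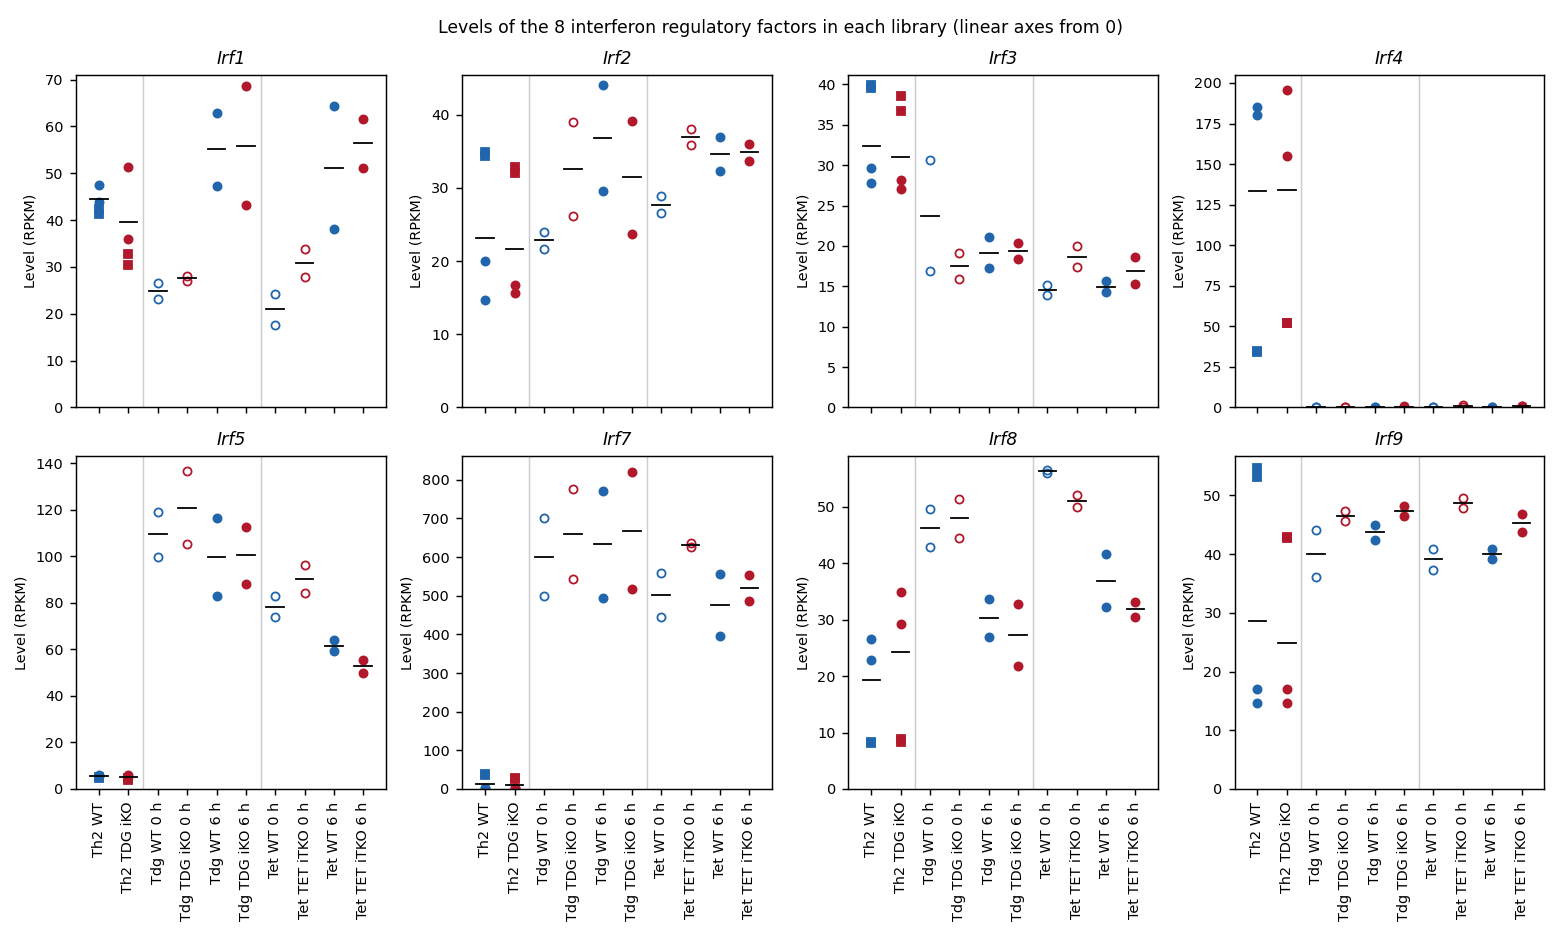
Level in RPKM (linear axes from 0) of each member in every library by group; blue is WT and red the knockout, open symbols 0 h and filled symbols Th2 cells or 6 h of KLA, squares Th2 replicates 3 and 4, and bars the group mean with replicates 3 and 4 averaged. Irf7 sits between 396 and 821 RPKM in all BMDM libraries, and Irf4 stays at or below 1.32 RPKM in them.

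Th2 cells had a different set of IRFs from macrophages. Irf4, needed for Th2 differentiation, was 180.1, 185, 34.1 and 34.6 RPKM in the WT Th2 libraries (replicates 1 to 4) and 155, 195, 52.3 and 52.0 in TDG iKO. Every Th2 library was far above every BMDM library. The WT difference to BMDMs at 0 h was 8.78 on the log2 scale (SE 1.06; adjusted p by DESeq2 1.31e-15). In that comparison 4 of 7 members with a p-value were called, against 54.8% of the 13913 genes tested, so the count itself was close to the background.

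The members known for myeloid roles were lower in Th2 cells. Irf5 was 4.70 to 6.01 RPKM in WT Th2 libraries and 73.8 to 119 in WT BMDMs at 0 h, -4.52 on the log2 scale (SE 0.28; DESeq2 adjusted p 7.02e-59), with no overlap. Irf8 was 26.7, 22.9, 8.37 and 8.11 RPKM in WT Th2 cells and 42.9 to 56.6 in WT BMDMs at 0 h, -1.82 on the log2 scale (SE 0.39; DESeq2 adjusted p 1.21e-05). Irf7 was 2.47, 1.69, 37.5 and 38.5 RPKM against 445 to 701, a log2 fold change of -5.70 (SE 1.05). DESeq2 gave Irf7 no p-value because a library was outlying by Cook's distance, and the edgeR quasi-likelihood test gave an adjusted p of 0.0027. Irf1 was 0.55 higher in Th2 cells (SE 0.24, DESeq2 adjusted p 0.0392; edgeR 0.0622). Irf1 was also not called with TMM scaling in DESeq2 (adjusted p 0.0881), nor without Th2 WT replicate 1 or 2, Tdg cohort WT 0 h replicate 1 or Tet cohort WT 0 h replicate 1 or 2 (0.101 to 0.153).

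For Irf2, Irf3 and Irf9 the cell types overlapped. The log2 fold changes were -0.52 for Irf2, 0.34 for Irf3 and -0.87 for Irf9 (DESeq2 adjusted p 0.168, 0.442 and 0.0897). These depended on the WT Th2 sample of replicates 3 and 4: without it Irf2 was -0.93 (adjusted p 0.000201), Irf9 -1.71 (7.60e-19) and Irf7 -8.45 (2.70e-131), and 7 members were called. Without Tdg cohort WT 0 h replicate 2, Irf3 was called higher in Th2 cells, by 0.66 (adjusted p 0.00794). Pathway genes separated the cell types in the same libraries, with 21 of 26 tested interferon-stimulated targets called lower and 1 higher in Th2 cells (median -4.19, against 0.13 over all genes tested). Ifit3 (-9.26), Ifi44 (-7.86) and Rsad2 (-7.12), effectors of the antiviral state, were among the largest decreases, and Igtp (0.90) was the one called higher. Of the partners and inhibitors 6 of 13 were higher and 6 lower. The AP-1 family partners of IRF4 were among the former, with Batf3 at 6.38 and Batf at 4.32, as was Socs1 (5.01), while Usp18 (-5.53) was lower.

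Within Th2 cells the IRFs split by library number in both genotypes. The fit held genotype and library set. Numbers 17 to 20 entered it as 1 summed sample per genotype, and numbers 1 to 4 as separate libraries. Irf7 was 1.69 to 2.47 RPKM in library numbers 1 to 4 and 25.4 to 38.5 in numbers 17 to 20, 3.91 on the log2 scale (SE 0.20; DESeq2 adjusted p 1.39e-78). Irf9, the DNA-binding partner of STAT2, was 14.6 to 17.1 RPKM and 42.8 to 54.7 (1.58, SE 0.13, adjusted p 5.64e-31). Irf2 was 14.7 to 20.1 and 32.1 to 34.9 RPKM (0.97, SE 0.14, adjusted p 2.64e-11). Irf4 went the other way, from 155 to 195 RPKM down to 34.1 to 52.3 (-2.10, SE 0.15, adjusted p 2.21e-44), and so did Irf8, from 22.9 to 35.0 down to 8.11 to 8.86 (-1.78, SE 0.13, adjusted p 3.09e-38). None of these 5 overlapped between the library sets. Irf3 and Irf5 did not overlap either, while Irf1 did. The share of all genes without overlap was not computed for this comparison, so the lack of overlap is not read as particular to the members. Irf3 was 27.1 to 29.6 and 36.6 to 39.9 RPKM (0.42, SE 0.10, adjusted p 7.64e-05), a call lost without the WT sample of replicates 3 and 4 (0.39, adjusted p 0.0984). In all 6 of 8 members were called, against 49.8% of 13193 genes. The comparison was chosen after the values were seen, so its p-values do not test the split.

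Irf1 and Irf5 were at the threshold in that comparison. The log2 fold changes were -0.32 for Irf1 (DESeq2 adjusted p 0.0601; edgeR 0.0494) and -0.34 for Irf5 (0.0927; edgeR 0.0426). Without the WT sample of replicates 3 and 4 Irf1 was called (-0.51, DESeq2 adjusted p 0.0311). Irf4 stood first among the 8 members in library numbers 1 to 4.

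**Figure D2:**
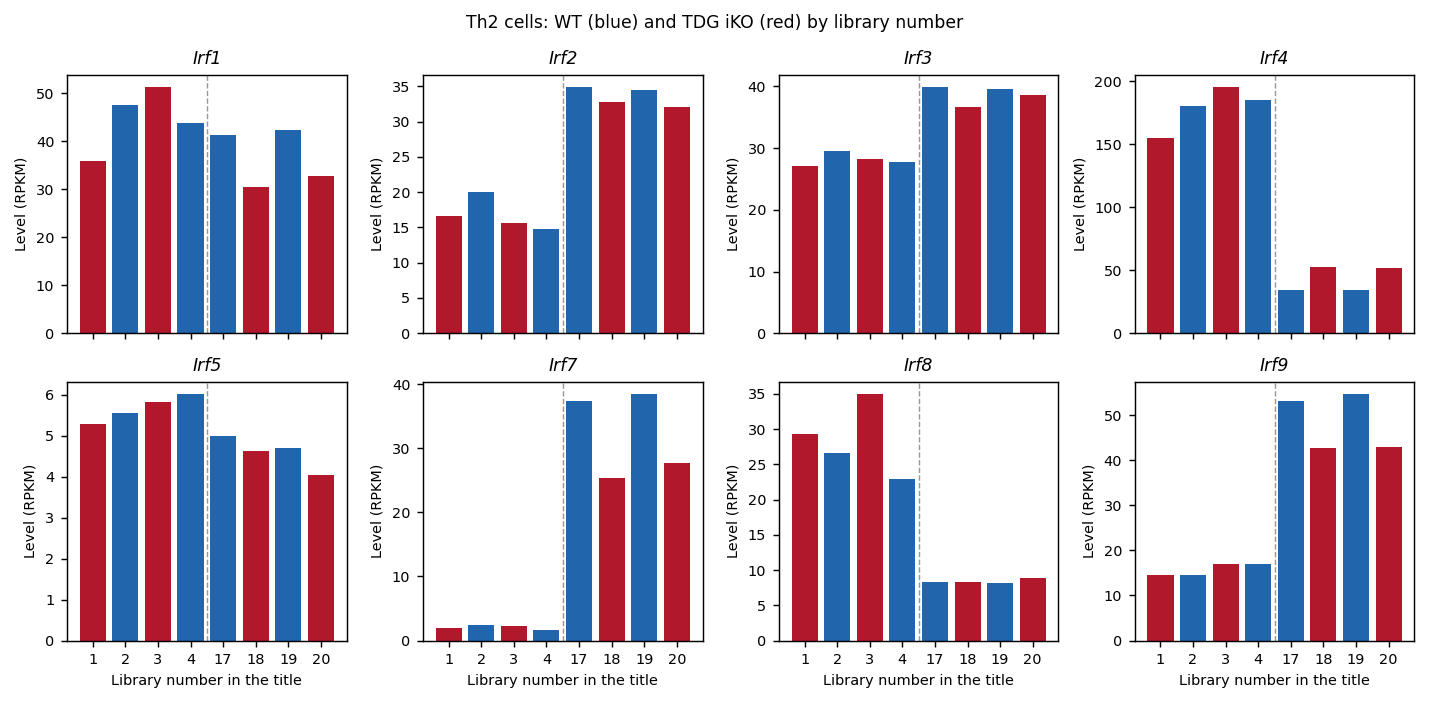
Level in RPKM of each member in the 8 Th2 libraries, ordered by the library number in the title; blue is WT, red TDG iKO, and the dashed line parts numbers 1 to 4 from 17 to 20. Irf7, Irf9 and Irf2 are higher and Irf4 and Irf8 lower to the right of the line in both genotypes.

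Interferon-pathway genes moved with the split. Of 29 interferon-stimulated targets tested, 20 were called higher in library numbers 17 to 20 and 3 lower (median log2 fold change 1.57, against 0.00 over all genes). Oas2 (6.68), Rtp4 (6.11) and Rsad2 (4.10) were among the largest increases. The 3 lower were Gbp2 (-0.97), Gbp5 (-0.85) and Igtp (-0.84), GTPases also induced by IFN-gamma. All 5 interferon receptor chains tested were higher, Ifngr2 by 1.46 and Ifngr1 by 1.36. Of 15 genes upstream of IRF activation 6 were higher, among them the RNA sensors Ifih1 (2.28) and Ddx58 (1.57) and the kinase gene Ikbke (1.78), and 2 were lower, Traf6 (-0.64) and Tmem173 (-0.21). Of 12 partners and inhibitors 8 were higher, with Usp18 at 2.02, Socs3 at 1.90 and Trim21 at 1.12, and 2 were lower, the IRF4 partners Batf3 (-3.32) and Batf (-1.48). Of 8 tested targets associated with IRF4 and IRF8, 1 was called higher and 3 lower (median 0.0007). The 3 were the Th2 cytokine genes Il5 (-2.93), Il13 (-2.47) and Il4 (-1.08). Over all genes 49.8% of 13193 were called. Of the interferon genes looked up, Ifnb1 had 0 to 2, Ifng 0 to 4, Ifna1 0 to 1 and Ifna4 0 to 3 raw counts in the Th2 libraries, and Ifna2, Ifna5, Ifnl2 and Ifnl3 had 0.

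The library sets also differed in depth (7641848 to 12288517 and 12522533 to 26657729 assigned counts) and in the share of counts on the ribosomal gene Rn45s (0.84% to 8.34% and 0.347% to 0.387%). The summed RPKM of 6 T cell markers was 1008 to 1229 and 1495 to 1574, of 6 Th2 markers 305 to 361 and 241 to 255, of 9 macrophage markers 4.74 to 7.52 and 18.3 to 20.0, and of 6 dendritic cell markers 89.8 to 121 and 59.7 to 68.9. Among these, 4 macrophage markers (Csf1r, Fcgr1, Lyz2 and Mertk) and 3 dendritic cell markers (Cd209a, Siglech and Xcr1) were at or under 3 counts in all Th2 libraries. The dendritic cell sum thus rested on Ccr7, Flt3 and Zbtb46 and is not read as dendritic cell content. The part of each in the split was not tested, and in bulk RNA fewer cells of a type and less RNA per cell cannot be told apart.

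KLA raised Irf1 in all 4 groups of macrophages and lowered Irf8 in both groups of the Tet cohort. Irf1, an early target of interferon and NF-kB, was 23.2 and 26.7 RPKM at 0 h and 47.4 and 63.0 at 6 h in WT of the Tdg cohort. In TDG iKO it was 27.1 and 28.1, then 43.3 and 68.5. In WT of the Tet cohort it was 17.7 and 24.3, then 38.1 and 64.3, and in TET iTKO 27.9 and 33.8, then 51.2 and 61.7. All 8 libraries at 6 h lay above all 8 at 0 h. The fold changes were 2.66-fold in WT of the Tet cohort (log2 1.41, SE 0.35, DESeq2 adjusted p 0.000513), 1.96-fold in TET iTKO (0.97, SE 0.35, 0.0276), 2.38-fold in WT of the Tdg cohort (1.25, SE 0.39, 0.0189) and 2.35-fold in TDG iKO (1.23, SE 0.39, 0.0238).

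The Irf1 call held under every alternative run in WT of the Tet cohort and not in the other 3 groups. In the Tdg cohort edgeR did not call it (adjusted p 0.106 in WT and 0.14 in TDG iKO). There the WT call of Irf1 was lost without WT 0 h replicate 1 (1.06, adjusted p 0.104) or WT 6 h replicate 2 (0.94, 0.557). The TDG iKO call was lost without TDG iKO 0 h replicate 1 (1.15, 0.293), 0 h replicate 2 (1.32, 0.142) or 6 h replicate 2 (0.72, 0.716). In TET iTKO it was lost without any 1 of the 4 TET iTKO libraries (log2 0.83 to 1.10, DESeq2 adjusted p 0.101 to 0.278), though edgeR called Irf1 with all of them (0.0135).

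Irf8, a lineage factor of macrophages, was 49.7 and 42.9 RPKM at 0 h and 33.7 and 26.96 at 6 h in WT of the Tdg cohort, and 51.4 and 44.5, then 32.8 and 21.7, in TDG iKO. In WT of the Tet cohort it was 56.1 and 56.6, then 41.6 and 32.3, and in TET iTKO 50.0 and 52.2, then 33.2 and 30.6. Every library at 6 h was below every library at 0 h. The decrease was called in the Tet cohort, at -0.49 (log2) in WT (SE 0.12; DESeq2 adjusted p 0.000436) and -0.58 in TET iTKO (SE 0.12, 2.51e-05). In the Tdg cohort Irf8 was -0.52 in WT (adjusted p 0.252) and -0.65 in TDG iKO (0.138), neither of them called.

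Irf2 and Irf5 were each called in 1 of the 4 groups. Irf2, the repressor that competes with IRF1, was 26.6 and 28.8 RPKM at 0 h and 32.3 and 37.0 at 6 h in WT of the Tet cohort, 0.44 on the log2 scale (SE 0.13; DESeq2 adjusted p 0.00512; edgeR 0.0105). In TET iTKO it was 35.9 and 38.1, then 36.0 and 33.7 (0.02, adjusted p 0.958), and the groups overlapped. The WT call of Irf2 was lost without WT 0 h replicate 1 (0.38, 0.143) or WT 6 h replicate 2 (0.30, 0.193). Irf5 was 84.4 and 96.5 RPKM at 0 h and 50.1 and 55.4 at 6 h in TET iTKO, -0.68 on the log2 scale (SE 0.12; DESeq2 adjusted p 5.82e-07). In WT it was 73.8 and 83.1, then 59.3 and 64.0 (-0.23, adjusted p 0.19), also without overlap. The file names of the Tet cohort carry the same number at 0 h and 6 h, and with those pairs as a block the WT decrease of Irf5 was called (-0.23, adjusted p 0.0391).

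In the Tdg cohort neither was called. Irf2 was 23.97 and 21.7 RPKM at 0 h and 29.5 and 44.03 at 6 h in WT, without overlap (log2 0.81, SE 0.44, DESeq2 adjusted p 0.287), and 26.2 and 39.1, then 23.8 and 39.1, in TDG iKO, with overlap (0.15, adjusted p 0.995). Irf5 was 99.6 and 119 RPKM, then 82.97 and 117, in WT (-0.03), and 105 and 137, then 88.2 and 113, in TDG iKO (-0.07), and both overlapped.

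The remaining members were not called with KLA in any group. Irf7 had log2 fold changes of 0.18, 0.22, 0.05 and -0.18 in WT of the Tdg cohort, TDG iKO, WT of the Tet cohort and TET iTKO. For Irf9 they were 0.23, 0.21, 0.15 and 0.00 and for Irf3 -0.22, 0.34, 0.16 and -0.04 in the same order. Irf4 had SEs of 0.68 to 1.21 and no call. Over all genes 24.1% of 11917 were called in WT of the Tet cohort and 24.4% of 11352 in TET iTKO, where 3 of 8 members were called each time. In the Tdg cohort, with 8.6% of 11633 genes called in WT and 7.08% in TDG iKO, it was 1 of 8 each time. The medians of the 8 members were 0.10, -0.03, 0.18 and 0.22 in that order of groups, beside -0.01, -0.01, -0.03 and 0.00 over all genes.

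**Figure D3:**
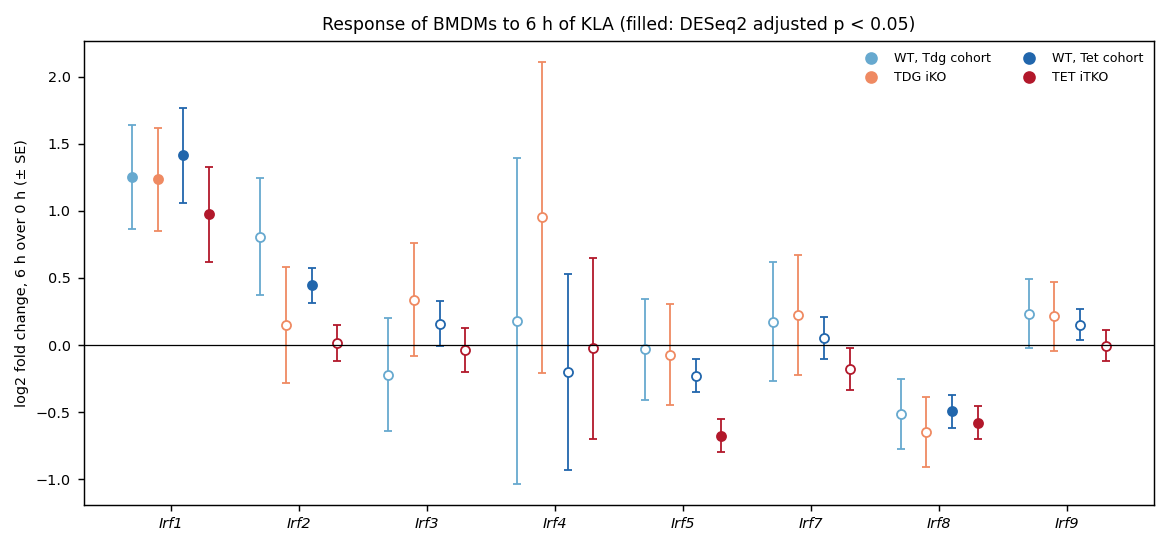
Log2 fold change (± SE) of each member at 6 h of KLA over 0 h in the 4 genotype groups of BMDMs; filled points passed DESeq2 adjusted p under 0.05. Irf1 is above 0 in all 4 groups (0.97 to 1.41) and Irf8 below 0 (-0.49 to -0.65), while Irf7 lies between -0.18 and 0.22.

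The genes around the IRFs responded to KLA as follows, in the Tet cohort. In WT 20 of 29 interferon-stimulated targets were called higher and 0 lower (median 1.04), and in TET iTKO 5 higher and 0 lower (median 0.25). The chemokine gene Cxcl10 rose by 4.95 in WT and 2.69 in TET iTKO on the log2 scale, the guanylate-binding protein gene Gbp5 by 4.44 and 2.93 and Gbp3 by 2.78 and 1.52. In the Tdg cohort 9 of 30 targets were called higher in WT (2 by edgeR; median 1.02) and 4 in TDG iKO (1 by edgeR; median 0.95), with Cxcl10 at 4.29 and 4.55. Upstream of the IRFs, 10 of 16 genes were called higher and 2 lower in WT of the Tet cohort and 6 and 2 in TET iTKO. They included the TLR4 co-receptor Cd14 (2.95 and 2.20), the kinase gene Ikbke (1.65 and 1.15) and the adaptor gene Ticam2 (1.62 and 2.03), while Tlr4 itself (-0.91 and -1.04) and the sensor adaptor Tmem173 (-0.99 and -0.92) were lower.

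Receptors and brakes also changed. Ifnar1 (0.74 and 0.49), Ifngr2 (0.62 and 0.52) and Ifnar2 (0.53 and 0.42) rose in WT of the Tet cohort and in TET iTKO, and Il10rb fell (-0.51 and -0.39). Ifngr1 fell in TET iTKO (-0.35). Among 6 receptor kinases and STATs 5 were called higher and 0 lower in WT, with Jak2 at 2.77, and 3 higher and 1 lower in TET iTKO, with Jak2 at 2.58 and Stat6 at -0.29. The feedback inhibitor Socs3 rose by 4.13 in WT and 2.61 in TET iTKO, the IRF4 partner Batf by 1.92 and 1.65, and the IRF2-binding Irf2bpl fell by 0.80 and 1.25 on the log2 scale. Of 6 tested genes associated with IRF4 and IRF8, 4 were called higher and 0 lower in each of these groups. Over all genes 24.1% of 11917 were called in WT and 24.4% of 11352 in TET iTKO. The largest increases included Il12b (5.53 and 4.74), the oxidase subunit gene Cybb (2.13 and 2.13) and the class II transactivator Ciita (2.89 and 2.09). Their relation to Irf8 was not tested. Interferon-beta transcripts were few: Ifnb1 had 12 to 81 raw counts at 0 h and 4 to 118 at 6 h, and Ifna1, Ifna2, Ifna4, Ifna5, Ifnl2 and Ifnl3, the alpha and lambda genes looked up, had 0 in every BMDM library.

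Loss of TDG left no called change in any member. In Th2 cells 0 of 7 members with a p-value were called, and over all 15826 genes 0 (0%) by DESeq2 and 0 by edgeR, with 77 and 55 at an unadjusted p under 0.05. In BMDMs at 0 h and at 6 h 0 of 8 members were called, against 0% of 15026 genes at each time by DESeq2 and 0 by edgeR. At an unadjusted p under 0.05 there were 265 and 34 genes by DESeq2, 125 and 27 by edgeR, and 0 members in all 3 TDG comparisons by either tool. The SEs set what could be seen. The main Th2 fit did not pair samples by replicate number, so its SEs include the split by library number. In Th2 cells they were 0.24 to 1.59, with log2 differences of -0.15 for Irf1, -0.09 for Irf2, -0.06 for Irf3, -0.07 for Irf5 and -0.20 for Irf9, and the Irf4 difference of 0.03 had a 95% interval of -1.27 to 1.32. In BMDMs Irf7 was 0.03 at 0 h (95% interval -0.84 to 0.91) and 0.08 at 6 h (-0.79 to 0.96), and Irf8 -0.05 (-0.56 to 0.47) and -0.18 (-0.69 to 0.34). The other differences at 0 h and 6 h were 0.05 and 0.03 for Irf1, 0.44 and -0.22 for Irf2, 0.05 and 0.01 for Irf5 and 0.13 and 0.11 for Irf9.

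Some TDG differences rested on 1 library. Irf4 at 0 h (0.13, SE 1.20) and Irf3 at 6 h (0.01, SE 0.42) were near 0. Irf3, the constitutive sensor-activated factor, was 16.9 and 30.6 RPKM in WT at 0 h and 15.9 and 19.1 in TDG iKO, a log2 fold change of -0.55 that became 0.07 without WT 0 h replicate 2, the shallowest library. Irf4 at 6 h was 0.21 and 0.22 RPKM in WT and 0.69 and 0.17 in TDG iKO (0.90), and -0.22 without TDG iKO 6 h replicate 1. In Th2 cells Irf7 was -0.47 (95% interval -3.59 to 2.65, edgeR adjusted p 1.00) and 2.27 without the WT sample of replicates 3 and 4. Irf8 was 0.35 there, and -0.02 without that sample.

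Loss of the TET enzymes left no called change in any member either. At 0 h 0 of 8 members passed the threshold by DESeq2 or edgeR, against 7.5% of 12200 genes by DESeq2, and 3 members (Irf2, Irf4 and Irf9) had an unadjusted p under 0.05 by DESeq2. At 6 h it was 0 of 8 against 6.58% of 11634 genes, with Irf4, Irf5 and Irf8 at an unadjusted p under 0.05. The libraries of the genotypes did not overlap at 0 h for 7 members, a pattern that 54.7% of the genes tested also had. Irf1 was 17.7 and 24.3 RPKM in WT and 27.9 and 33.8 in TET iTKO (log2 0.50, SE 0.35, adjusted p 0.567). Irf2 was 26.6 and 28.8, and 35.9 and 38.1 (0.36, SE 0.13, adjusted p 0.0756). Irf9 was 37.3 and 40.9, and 47.9 and 49.5 (0.26, SE 0.12, adjusted p 0.183), and Irf7 445 and 558, and 626 and 637 (0.28, SE 0.16, adjusted p 0.375). The other differences at 0 h were 0.31 for Irf3, 0.15 for Irf5 and -0.19 for Irf8, and the median of the 8 was 0.29, beside 0.01 over all genes.

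The Irf1 difference at 0 h was sensitive to the fit. The 8-library fit also holds the 6 h WT libraries, at 38.1 and 64.3 RPKM. In a fit of only the 4 libraries at 0 h Irf1 was called (0.50, DESeq2 adjusted p 0.0226), as was Irf2 (0.36, 0.0432). Irf1 was also called without WT 6 h replicate 1 (0.0265) or replicate 2 (0.0302).

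Irf4 had the largest TET difference and the lowest counts. Its level was 0.11 and 0.40 RPKM in WT and 0.31 and 1.32 in TET iTKO at 0 h, which overlapped (log2 1.61, SE 0.70, DESeq2 adjusted p 0.174). At 6 h it was 0.11 and 0.30 in WT and 0.68 and 0.82 in TET iTKO, without overlap (1.78, SE 0.71, adjusted p 0.128). The 0 h difference of Irf4 ranged from 0.22 to 2.84 when 1 library was left out: 0.22 without TET iTKO 0 h replicate 2, 0.98 without WT 0 h replicate 1, 2.84 without WT 0 h replicate 2, and 2.29, with a call (adjusted p 0.0484), without TET iTKO 0 h replicate 1. At 6 h the Irf4 difference was 1.23 to 2.68 and was not called whichever library was left out, with the extremes without WT 6 h replicates 1 and 2. Markers of other cells moved with it. The summed RPKM of 4 B cell markers was 0.667 to 0.805 in WT and 2.13 to 8.10 in TET iTKO at 0 h, and 0.747 to 0.816 and 1.72 to 7.21 at 6 h, with Pax5 at or under 3 counts in WT and none of the 4 so low in TET iTKO. Of neutrophil and precursor markers (5 of 6 with a value) the sums were 55.2 to 82.0 and 134 to 234 at 0 h, and of 2 progenitor markers 0.649 to 0.658 and 1.96 to 7.999. The sums of 6 dendritic cell markers were 0.129 to 0.174 in WT and 0.489 to 1.97 in TET iTKO at 0 h. At 6 h they were 0.101 to 0.125 and 0.588 to 2.15, with Cd209a and Siglech at or under 3 counts throughout. Their genes did not all go 1 way. At both times Flt3 and Zbtb46 were at or under 3 counts in WT only, and Xcr1 in TET iTKO only. Macrophage markers summed to 17071 to 17845 in WT and 14079 to 14313 in TET iTKO at 0 h, and to 16402 to 17715 and 13662 to 13918 at 6 h. Their part in the Irf4 difference was not tested.

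At 6 h the differences of Irf5 and Irf8 in TET iTKO lay below 0 and were not called. Irf5 was 59.3 and 64.0 RPKM in WT and 50.1 and 55.4 in TET iTKO (log2 -0.30, SE 0.12, DESeq2 adjusted p 0.157), and Irf8 41.6 and 32.3, and 33.2 and 30.6 (-0.28, SE 0.12, adjusted p 0.194). Irf8 was -0.13 without WT 6 h replicate 1 (adjusted p 0.900) and -0.42, with a call, without WT 6 h replicate 2 (0.0371). The differences of Irf1, Irf2, Irf3, Irf7 and Irf9 lay between -0.07 and 0.11.

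**Figure D4:**
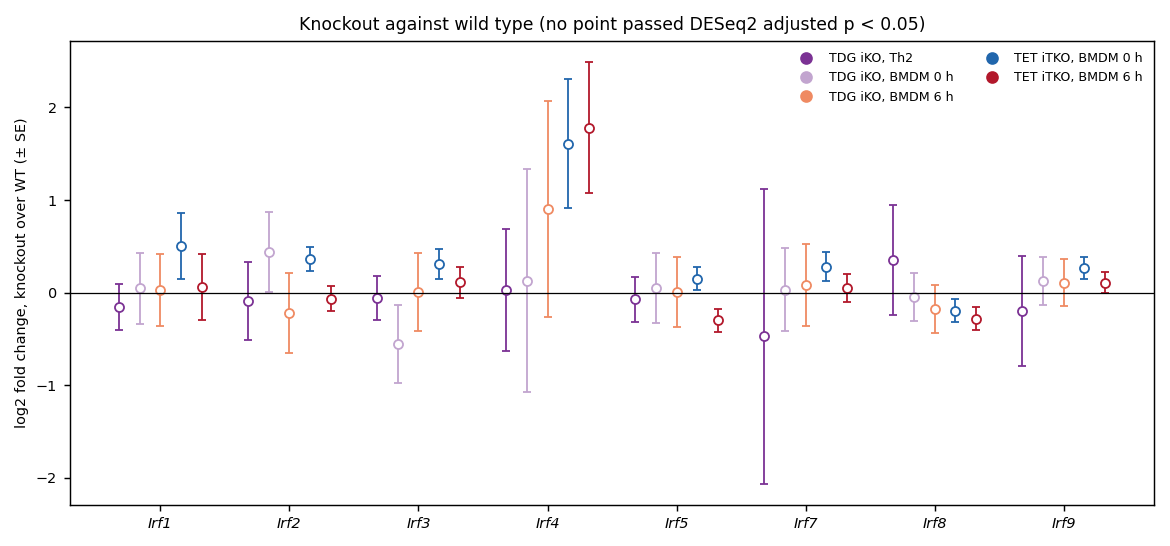
Log2 fold change (± SE) of each member in the knockout over its own WT, in Th2 cells and in BMDMs at 0 h and 6 h; open points did not pass DESeq2 adjusted p under 0.05, and no point passed. The Irf4 bars are wide (SE 0.70 and 0.71 for TET iTKO), and in TET iTKO at 0 h all members but Irf8 lie above 0.

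Some other genes of the pathway were called in TET iTKO at 0 h, when 7.5% of 12200 genes were called over all. Of 5 interferon receptor chains 0 were called. Of 16 genes upstream of IRF activation 4 were higher (3 by edgeR), including Cd14 (1.64), Tmem173 (0.63) and Zbp1 (0.54). Of 13 partners and inhibitors 3 were higher (1 by edgeR), with Socs3 at 1.60 and Batf at 0.67. Jak2 was 0.60 higher, Ciita 1.67 higher and Gbp2 1.21 higher, the last as the only 1 of 29 interferon-stimulated targets called (median of the list 0.62). The lysosomal protease gene Ctss, an IRF8-associated target, was lower by 0.36 at 0 h and by 0.45 at 6 h on the log2 scale. At 6 h 0 of 29 interferon-stimulated targets were called (median -0.15), against 6.58% of 11634 genes. Of 16 genes upstream of IRF activation 2 were called higher at 6 h, Tmem173 by 0.70 (edgeR adjusted p 0.0378) and Ticam2 by 0.55 (edgeR 0.0934). Jak2 was then 0.42 higher (edgeR adjusted p 0.127), Il12b 1.83 higher (edgeR adjusted p 0.0887) and Irf2bpl 0.63 lower.

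The change of the KLA response between genotypes was tested directly. In TET iTKO 0 of 8 members were called (edgeR 0), against 0.426% of 12200 genes, with 2 members at an unadjusted p under 0.05 by each tool. Irf5 had the larger KLA decrease in TET iTKO by 0.45 on the log2 scale (SE 0.17, DESeq2 adjusted p 0.588), and with the 0 h and 6 h libraries paired by file number it was called (-0.45, adjusted p 0.0174). Irf2 had a change of -0.43 (SE 0.19, 95% interval -0.80 to -0.06, adjusted p 0.864). The Irf1 change was -0.44 (SE 0.50), called without WT 6 h replicate 1 (-0.79, adjusted p 0.0442) and near 0 without WT 6 h replicate 2 (0.04), so each of those libraries decided it. Irf3 (-0.20), Irf4 (0.17, SE 1.00), Irf7 (-0.23), Irf8 (-0.09) and Irf9 (-0.16) were not called. In TDG iKO the change was called for 0 of 8 members and 0% of 15026 genes (edgeR 0), with 0 members and 37 genes (edgeR 24) at an unadjusted p under 0.05. Irf2 there had -0.66 (95% interval -1.86 to 0.55), Irf3 0.56 and Irf4 0.77 (SE 1.68), and Irf1, Irf5, Irf7, Irf8 and Irf9 lay between -0.13 and 0.05.

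The response of the interferon-stimulated targets was smaller in TET iTKO than in WT for all 29 tested in both, with a median change of -0.87 beside -0.01 over all genes. None of the 29 changes was called by DESeq2 or edgeR, and 0 had an unadjusted DESeq2 p under 0.05. In TET iTKO against WT the list median was 0.62 at 0 h and -0.15 at 6 h. The 29 genes were measured in the same libraries and are not separate observations. The share of all genes with a smaller response was not computed. The feedback inhibitor Socs3 was the list gene with a called change (-1.52, SE 0.23, DESeq2 adjusted p 2.31e-07), which edgeR did not call (0.114).

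**Figure D5:**
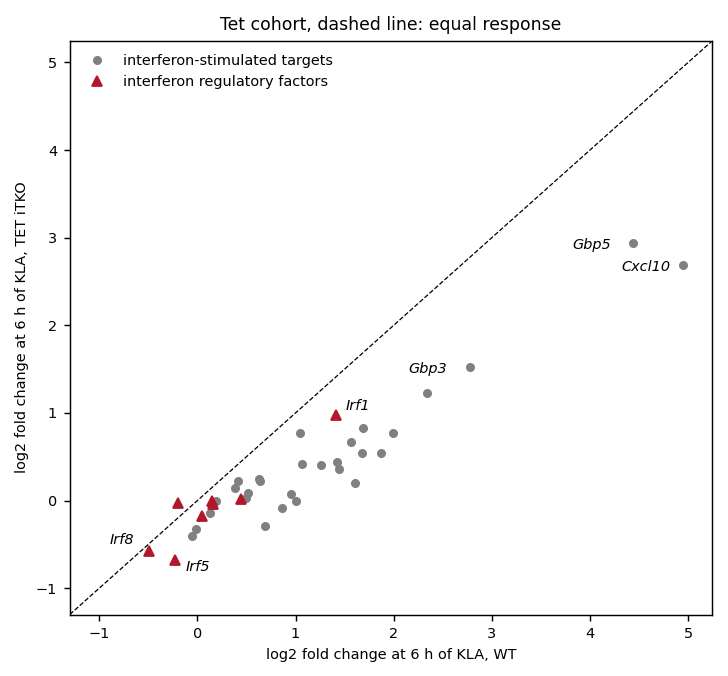
Log2 fold change at 6 h of KLA in WT (horizontal) and TET iTKO (vertical) of the Tet cohort for 30 interferon-stimulated targets (grey) and the 8 IRFs (red). The dashed line marks an equal response. All 30 targets lie below the line, 29 of them tested in both and Ifi47 not tested. Cxcl10 is at 4.95 and 2.69, and Irf1 at 1.41 and 0.97.

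The TET and TDG effects, each against its own WT, did not differ by a called amount in any member. At 0 h 0 of 8 members were called by DESeq2 and by edgeR, against 0.355% of 10992 genes, and at 6 h 0 of 8 against 0.0765% of 13075, with 0 members at an unadjusted p under 0.05 at either time by either tool. The widest gaps were 1.52 for Irf4 (SE 1.44) and 0.86 for Irf3 (SE 0.46, adjusted p 0.827) at 0 h, when Irf1, Irf2, Irf5, Irf7, Irf8 and Irf9 lay between -0.14 and 0.46. At 6 h Irf4 was 0.90 (SE 1.41) and the other 7 members lay between -0.29 and 0.16. Irf3 was called without Tdg cohort WT 0 h replicate 1 (1.31, adjusted p 0.00346), which left WT 0 h replicate 2 as the lone WT library.

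Across the 16 BMDM libraries, after the mean of each cohort was subtracted, the 2 genes most like each member by Pearson's r of log2 normalised counts (among 9475 genes) were as follows. Irf1 was closest to Gbp5 (0.98) and Gbp3 (0.98), which encode interferon-induced GTPases. Irf2 was closest to Znfx1 (0.98) and Adar (0.96), and Irf9 to Gpbp1l1 (0.97) and Ddx60 (0.94). Irf7 was closest to Dennd6b (0.96) and Tmem184b (0.95), Irf3 to Ifitm3 (0.96) and Dok3 (0.96), and Irf5 to Cnp (0.93) and Fcgr4 (0.90). Irf8 was closest to Kcnk13 (0.98) and Adssl1 (0.98). For Irf4, with a mean of 24.1 normalised counts, Serinc3 (0.94) and Sf3b3 (0.91) came closest. Among the members Irf1 and Irf8 had the strongest relation, -0.95. The points share the KLA contrast, depth and replicate differences, so these values describe the libraries and carry no test.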

How the data were processed

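Polyadenylated RNA of 24 libraries was sequenced as directional paired-end reads. The authors aligned them to mm9 with HISAT2 and deposited raw counts per gene symbol from HTSeq-count, as whole numbers with no normalization; the annotation and strand setting are not given in the sources used here. The deposited counts were tested on all genes with DESeq2 1.42.0 in R 4.3.3 (Wald test at default settings, fold changes not shrunken), the tool the study names, with a threshold of 0.05 on the adjusted p-value. P-values were adjusted by Benjamini-Hochberg over all genes tested. As an alternative, edgeR 4.0.16 was run (quasi-likelihood, TMM, filterByExpr). Both were tested on simulated data.

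The 6 Th2 samples, each BMDM cohort (4 groups of 2 libraries) and, for differences between the TET and TDG effects, all 16 BMDM libraries were fitted together. WT Th2 cells (3 samples) and WT BMDMs at 0 h (4 libraries) formed another fit. The comparison by library number used the 6 Th2 samples, with genotype and library set in the fit. Levels are counts divided by the union of protein-coding exons (GENCODE vM1) and by the assigned counts without Rn45s. The 5 tallies of unassigned pairs, 32.8% to 51.6% of each library, were left out.

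The members, gene lists, markers and tests were chosen with earlier results of these data known. All 8 members were described in every comparison, some of them by the range of their values. From each list up to 3 genes per direction with the largest change were taken, provided that they were called and averaged 50 or more normalised counts, and for each member the 2 genes most like it. Other genes named, such as low-count interferons, were list members whose values were seen first.

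Th2 replicate numbers were taken to pair the samples in the replicate block, since the correlations of same-numbered deviations were 0.51 to 0.92 over 3 pairs. The main Th2 fit held genotype alone and did not use these pairs. The Tet cohort pairs between 0 h and 6 h came from numbers in the file names (correlations 0.50 in WT and 0.40 in TET iTKO). Besides edgeR, the fits were repeated with TMM factors, with genes kept only at 10 counts or more in 2 libraries, with replicate blocks, on fewer groups and without each library.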

Additional observations from a re-analysis of the deposited data

How the results depend on the processing

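Among counts of members called, 191 of 211 alternatives stayed within 1.5 times the main count, as did the direction and side of the threshold of 1498 of 1688 single fold changes. Where leaving out a library leaves 1 in a group, the lone library is assumed to vary like the others. Leaving out each library in turn gave 0 to 1 members called for TET iTKO against WT at 0 h and at 6 h, for KLA in WT of the Tdg cohort and in TDG iKO, for the change of the KLA response in TET iTKO and for the TET minus TDG difference at 0 h, and 4 to 7 for WT Th2 cells against WT BMDMs (4 with all samples). With edgeR 0 members were called for KLA in WT of the Tdg cohort and in TDG iKO. With only the 4 libraries compared, 2 were called for TET iTKO at 0 h. The causes were not tested beyond the fewer samples in these fits.

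With the replicate block 1 member was called for TET iTKO at 0 h (Irf1, 0.52, adjusted p 0.00761), 1 at 6 h (Irf4, 2.00, 0.0185) and 2 for KLA in TDG iKO (Irf1 and Irf8); with the block nested in genotype it was 2 for KLA in WT of the Tdg cohort (Irf1 and Irf2) and 1 for the change of the response in TET iTKO (Irf5). In the Tdg cohort the replicates share only a number (correlations of same-numbered deviations 0.316 to 0.817 over 2 pairs), as do WT and TET iTKO (0.031 at 0 h and 0.065 at 6 h). In Th2 cells the blocked fit changed no call.

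With 1 sample left out in turn, 59 of 120 member fold changes took both signs, and 0 of these 59 were called with all samples. Their lowest and highest values on the log2 scale follow. For TDG iKO in Th2 cells they were -0.49 to 0.31 (Irf2), -0.20 to 0.11 (Irf3), -0.43 to 0.42 (Irf4), -0.17 to 0.0579 (Irf5), -2.73 to 2.27 (Irf7), -0.0177 to 0.76 (Irf8) and -0.83 to 0.64 (Irf9). For TDG iKO in BMDMs at 0 h they were -0.15 to 0.27 (Irf1), -1.001 to 0.0749 (Irf3), -0.75 to 4.73 (Irf4), -0.22 to 0.30 (Irf5) and -0.32 to 0.43 (Irf7). For TDG iKO in BMDMs at 6 h they were -0.49 to 0.41 (Irf1), -0.77 to 0.20 (Irf2), -0.20 to 0.25 (Irf3), -0.22 to 1.54 (Irf4), -0.32 to 0.37 (Irf5), -0.44 to 0.54 (Irf7) and -0.0108 to 0.23 (Irf9). For TET iTKO at 6 h they were -0.30 to 0.53 (Irf1), -0.19 to 0.073 (Irf2), -0.0462 to 0.24 (Irf3) and -0.20 to 0.36 (Irf7). For KLA in WT of the Tdg cohort they were -0.67 to 0.40 (Irf3), -0.69 to 4.78 (Irf4), -0.39 to 0.26 (Irf5) and -0.27 to 0.56 (Irf7). For KLA in TDG iKO they were -0.40 to 0.56 (Irf2), -0.17 to 1.59 (Irf4), -0.39 to 0.20 (Irf5) and -0.29 to 0.61 (Irf7). For KLA in WT of the Tet cohort they were -1.10 to 1.03 (Irf4) and -0.26 to 0.30 (Irf7). For KLA in TET iTKO they were -0.028 to 0.0557 (Irf2), -0.19 to 0.0955 (Irf3), -0.71 to 1.37 (Irf4) and -0.0585 to 0.0454 (Irf9). For the change of response in TDG iKO they were -0.54 to 0.37 (Irf1), -0.067 to 1.00 (Irf3), -3.84 to 1.64 (Irf4), -0.37 to 0.32 (Irf5), -0.47 to 0.50 (Irf7), -0.31 to 0.0387 (Irf8) and -0.14 to 0.11 (Irf9). For the change of response in TET iTKO they were -0.79 to 0.0383 (Irf1), -1.05 to 1.56 (Irf4), -0.48 to 0.0809 (Irf7) and -0.22 to 0.0674 (Irf8). For the TET minus TDG difference at 0 h they were -0.38 to 0.32 (Irf2), -3.10 to 2.74 (Irf4), -0.15 to 0.38 (Irf5) and -0.14 to 0.61 (Irf7). For that difference at 6 h they were -0.35 to 0.57 (Irf1), -0.26 to 0.73 (Irf2), -0.14 to 0.33 (Irf3), -0.66 to 0.0436 (Irf5), -0.48 to 0.51 (Irf7), -0.25 to 0.0865 (Irf8) and -0.12 to 0.13 (Irf9). With Th2 replicates 1 and 2 alone the sign turned for Irf4 (TDG iKO in Th2 cells, -0.0477), Irf7 (TDG iKO in Th2 cells, 1.96e-05) and Irf9 (TDG iKO in Th2 cells, 0.00962). With the replicate block as pairing it turned for Irf4 (KLA in TET iTKO, 0.31), Irf4 (the change of response in TDG iKO, -0.012), Irf2 (the TET minus TDG difference at 0 h, 0.00869) and Irf7 (that difference at 6 h, 0.0115). With the replicate block nested in genotype it turned for Irf4 (KLA in TET iTKO, 0.26) and Irf4 (the change of response in TDG iKO, -0.15). With only the 4 libraries compared it turned for Irf9 (KLA in TET iTKO, 0.000545). With edgeR it turned for Irf7 (the change of response in TDG iKO, -0.00498).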
